A study of Mus musculus with 4 samples.

Results

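The complement component genes C1qa, C1qb, C1qc, C1ra, C1s1, C2, Cfb, C3 and C4b were examined in RNA from lungs of mice bearing 4T1 metastases, with and without ADC/cmLumiOpto treatment. These 9 genes were taken by symbol from the 56748 genes of the count table, each matched 1 row, and all 9 passed the filter on low counts that left 15320 tested genes. The members were chosen by their counts in the saline and ADC/cmLumiOpto samples, the contrast described here, so their levels and differences are a description without a test of any member.

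Samples were from female BALB/cJ mice, 7 weeks of age at injection, that had received 2000000 4T1-FLuc cells, a mouse line of triple-negative breast cancer that carries luciferase, through the tail vein. The 2 saline samples (PBS in the labels) were compared with 2 samples from mice given the anti-CD276 antibody-drug conjugate with mertansine (DM1), a microtubule inhibitor, together with cmLumiOpto, a gene therapy vector that depolarizes mitochondria of cancer cells. The labels give 16 mg/kg of conjugate and the treatment text "cmLumi-Olap", whereas the methods give 8 mg/kg with ViviRen, the luminescent substrate of the vector. The paper does not use the term "Olap", but it cites earlier work that paired cmLumiOpto with poly(ADP-ribose) polymerase inhibitors. The groups were taken as titled, and which drugs the treated mice received is uncertain to that extent. The series text names harvested tumor cells after 3 weeks of treatment, where the methods name dissociated lung tissue. The libraries held 15263375 to 19675436 counts. Levels are in CPM, counts scaled to the TMM-normalized library size, and the floor of 3 counts came to 0.152 to 0.197 CPM, for counting error only. The epithelial and tumor gene Krt8 was at 1117 to 1543 CPM, and the alveolar type 2 gene Sftpc was at 174 to 4321 CPM, so RNA of lung epithelium was present in each sample, although the labels name the 4T1 line. The methods describe biological samples from mice, 4 per group, whereas the series holds 4 samples in all, 2 per group, and all were analysed here. The labels do not tie the samples to single animals, so each p measures the spread between these samples.

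Complement is a cascade of plasma and tissue proteins that marks targets for phagocytosis and lysis. In the classical pathway, C1q, built of A, B and C chains, binds its target and activates the proteases C1r and C1s, which cleave C4 and C2 into a C3 convertase. In the alternative pathway, factor B, the product of Cfb, takes the place of C2, and both routes lead to cleavage of C3 and then C5. The liver makes much of the plasma pool, while macrophages are the main source of C1q, and fibroblasts and epithelial cells also make several components. The hepatocyte gene Alb was at 0 to 0.188 CPM, and 0 of 8 hepatocyte markers passed the filter.

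Sequences upstream of transcription start sites are shown for the members with a listed promoter. The RefSeq promoter table (GRCm38.p6) matched 5 of the 9 members, and C1qa, C2, Cfb and C4b had no entry. C4b was the member with the clear negative difference, so these windows cannot be set against the direction of the members. The 250 bases before the start are given 5′ to 3′ on the gene's strand, for C1s1 before the more upstream of its listed starts. Capitals mark matches to the motif letters searched on both strands: PU.1 (GAGGAA), GAS (TTCNNNGAA), IRF, C/EBP (TTGCNNAA), AP-1 (TGANTCA) and NF-kappaB.
C1qb, GRCm38.p6 chr4:136886201-136886450, minus strand: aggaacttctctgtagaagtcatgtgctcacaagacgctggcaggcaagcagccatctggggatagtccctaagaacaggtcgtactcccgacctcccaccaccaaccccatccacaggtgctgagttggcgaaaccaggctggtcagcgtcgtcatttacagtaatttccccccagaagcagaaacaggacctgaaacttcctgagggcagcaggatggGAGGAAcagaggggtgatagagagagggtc
C1qc, GRCm38.p6 chr4:136892915-136893164, minus strand: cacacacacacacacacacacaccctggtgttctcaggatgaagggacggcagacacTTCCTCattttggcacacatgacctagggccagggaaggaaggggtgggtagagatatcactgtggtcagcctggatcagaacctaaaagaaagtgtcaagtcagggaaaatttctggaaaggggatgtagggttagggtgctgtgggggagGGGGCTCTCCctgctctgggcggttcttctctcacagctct
C1ra, GRCm38.p6 chr6:124512371-124512620, plus strand: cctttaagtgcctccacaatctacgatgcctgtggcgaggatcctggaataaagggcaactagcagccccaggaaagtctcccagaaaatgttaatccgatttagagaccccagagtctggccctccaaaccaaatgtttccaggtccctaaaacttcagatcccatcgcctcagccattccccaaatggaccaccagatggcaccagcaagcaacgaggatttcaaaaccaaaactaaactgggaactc
C1s1, GRCm38.p6 chr6:124542360-124542609, minus strand: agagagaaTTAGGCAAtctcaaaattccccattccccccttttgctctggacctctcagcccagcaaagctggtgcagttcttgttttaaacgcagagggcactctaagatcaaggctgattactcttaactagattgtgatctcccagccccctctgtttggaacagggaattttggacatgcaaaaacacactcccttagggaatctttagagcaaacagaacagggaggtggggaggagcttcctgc
C3, GRCm38.p6 chr17:57228137-57228386, minus strand: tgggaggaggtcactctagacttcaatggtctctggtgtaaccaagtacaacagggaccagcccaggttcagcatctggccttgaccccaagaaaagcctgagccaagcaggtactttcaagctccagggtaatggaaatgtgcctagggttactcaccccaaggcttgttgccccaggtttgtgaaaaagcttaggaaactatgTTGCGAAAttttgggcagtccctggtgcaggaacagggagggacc
In the C1qb window, PU.1 letters lay 30 to 25 bases before the start, and in the C1qc window they lay 193 to 188 bases before it on the other strand. The C1qc window also held NF-kappaB letters 41 to 32 bases before the start. The C3 window held C/EBP letters 45 to 38 bases before the start, and the C1s1 window held them 242 to 235 bases before its start. The C1ra window held none of the 6 motifs, and GAS, IRF and AP-1 letters were found in none of these windows. Of 32841 RefSeq promoter windows of the same length, 23.3% held PU.1 letters, 9.57% C/EBP, 7.25% NF-kappaB, 7.02% GAS, 6.75% AP-1 and 2.98% IRF. A match describes letters in the window and not a bound site.

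The 3 C1q chain genes lie side by side on chromosome 4 and had the highest levels per length of the members. C1qa (ENSMUSG00000036887, mm39 chr4:136623228-136626114, minus strand) was at 534 and 405 CPM in the saline samples and 725 and 496 CPM in the ADC/cmLumiOpto samples. Its saline and treated values overlapped, since ADC/cmLumiOpto replicate 2 lay below saline replicate 1, and the log2 fold change of ADC/cmLumiOpto over saline was 0.38 (standard error, SE, 0.24, n = 2 per group). C1qb (ENSMUSG00000036905, chr4:136607440-136613498) was at 312 and 249 CPM in the saline samples and 477 and 321 CPM in the treated samples. Both treated samples lay above both saline samples, by a narrow margin between 321 and 312 CPM, and the log2 fold change was 0.51 (SE 0.24). C1qc (ENSMUSG00000036896, chr4:136617115-136620376) was at 354 and 269.8 CPM in the saline samples and 462 and 329 CPM in the treated samples, with overlap between the groups and a log2 fold change of 0.34 (SE 0.23). Within each group, replicate 1 was above replicate 2 for each chain, by 1.25- to 1.32-fold in the saline group and 1.40- to 1.49-fold in the treated group. The ratio of group means was 1.27 to 1.42, about as large as these ratios between replicates. With each sample left out in turn, the log2 fold change was 0.080 to 0.62 for C1qa, 0.20 to 0.76 for C1qb and 0.077 to 0.56 for C1qc, the lowest without ADC/cmLumiOpto replicate 1 and the highest without ADC/cmLumiOpto replicate 2. In bulk RNA, fewer cells of a type and less RNA per cell cannot be told apart, and this holds for each gene below.

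**Figure D1:**
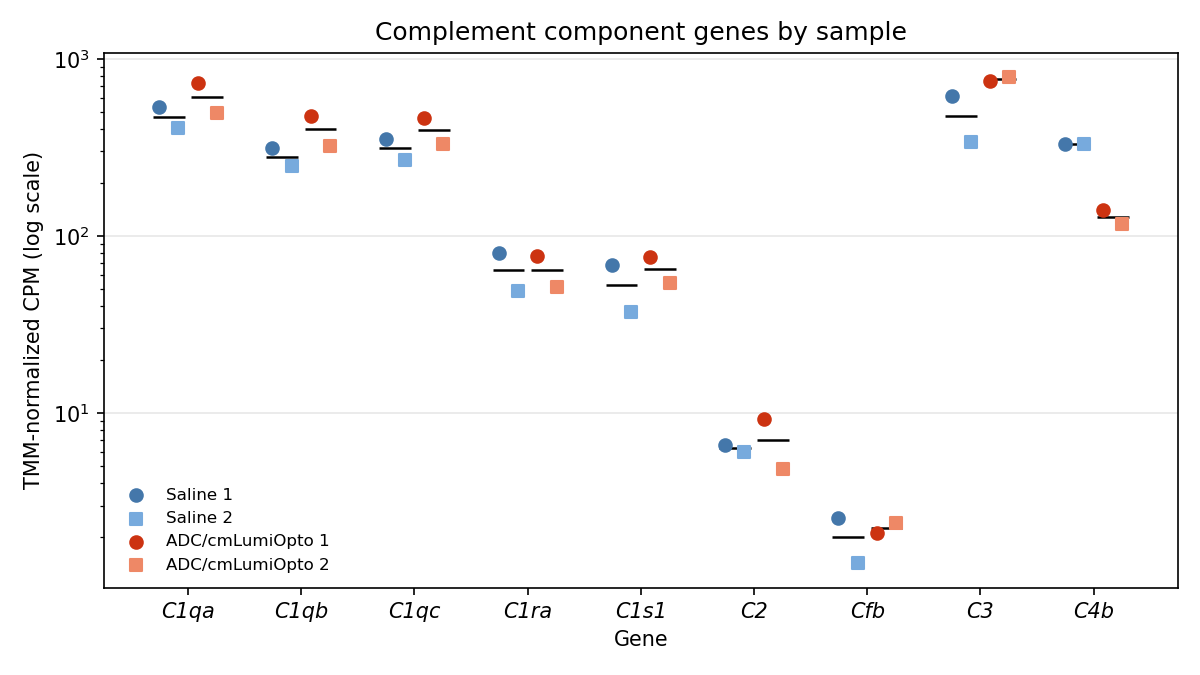
TMM-normalized CPM on a log axis for each member, with 1 point per sample (saline in blue, ADC/cmLumiOpto in red, circles for replicate 1 and squares for replicate 2) and a bar at each group mean. C4b is at 328 CPM in both saline samples and at 139.7 and 117 CPM in the treated samples, whereas the C1q chains, C1ra and C1s1 differ as much within a group as between groups.

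The chains kept nearly fixed proportions from sample to sample. Per length, C1qa was 2.80 and 2.79 times C1qc in the saline samples and 2.92 and 2.80 times in the treated samples. C1qb was 1.56 and 1.64 times C1qc in the saline samples and 1.83 and 1.73 times in the treated samples, so the treated samples had somewhat more C1qb per C1qc. On centered log2 CPM over the 4 samples, the distance between C1qa and C1qc was 0.052, the smallest of the 3 pairs, and that between C1qb and C1qc was 0.17, the largest. No stretch of 50 bases was shared between the transcripts of any pair of the 3 chains.

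Macrophage and monocyte markers differed among themselves in direction. Of 10 such markers, 7 had log2 fold changes above 0 and 3 below, beside 52.0% of all tested genes above 0. In both treated samples, 3 lay higher and 1 lay lower than in both saline samples, beside 28.1% and 28.8% of all tested genes. Their summed level was 1616 to 2417 CPM in the saline group and 3077 to 5086 CPM in the treated group, most of it from the lysozyme gene Lyz2. Other cells, neutrophils among them, also express Lyz2. It was highest in ADC/cmLumiOpto replicate 1, at 4299 CPM against 2447 CPM in replicate 2, whereas summed neutrophil markers were at 1391 and 9161 CPM there. The part of other cells in the Lyz2 values was not tested. The summed C1q chains were 0.496 and 0.572 of the summed macrophage and monocyte markers without and 0.327 and 0.372 with treatment. Against Adgre1, which encodes the macrophage antigen F4/80, they were 25.8 and 25.96 times in the saline samples and 24.5 and 32.5 times in the treated samples, which overlapped. Against Csf1r, the receptor for macrophage colony-stimulating factor, the ratios were 3.93 and 5.88 without and 6.72 and 5.68 with treatment, again with overlap. Against Mertk, a receptor for uptake of apoptotic cells, they were 51.5 and 37.2 without and 68.1 and 57.9 with treatment, so these ratios were higher in both treated samples while those to the summed list were lower. None of the 10 markers was at 0 in any sample. The part of these cells in the C1q values was not tested.

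C1ra and C1s1 encode the proteases that bind to C1q. C1ra (ENSMUSG00000055172, chr6:124489364-124500402) was at 80.1 and 48.6 CPM in the saline samples and 76.5 and 51.5 CPM in the treated samples. The treated values lay inside the range of the saline values, and the log2 fold change was -0.0092 (SE 0.30). C1s1 (ENSMUSG00000038521, chr6:124507304-124519318) was at 68.6 and 37.0 CPM in the saline samples and 75.5 and 54.3 CPM in the treated samples, with overlap and a log2 fold change of 0.30 (SE 0.32). The ratio of saline replicate 1 to replicate 2 was 1.65 for C1ra and 1.85 for C1s1, larger than their ratios between groups of 0.994 and 1.23. Per length, C1ra was 1.23 and 1.38 times C1s1 in the saline samples and 1.06 and 0.996 times in the treated samples, so the pair was closer to equal in the treated samples. The chains of C1q together were 20.1 and 27.0 times C1ra plus C1s1 per length in the saline samples and 27.6 and 27.2 times in the treated samples.

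Reads of C1ra and C1s1 may be divided with near copies. In GENCODE M21 transcripts (GRCm38), 48% of 50-base stretches of C1ra also occur in C1rb, and 24.3% of those of C1s1 occur in C1s2. Saline samples had 97 and 65 counts of C1rb and treated samples 140 and 94, and for C1s2 these were 99 and 44 and then 84 and 72, against 549 to 1350 counts for C1ra and C1s1. The values of C1ra and C1s1 are uncertain to the extent that the counting divided such reads. Exons of C1s1 also overlap the antisense-strand gene Gm16567 over 18.4% of their bases, and reads of the pair cannot be told apart without strand.

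C2 and Cfb encode the homologous proteases that carry the catalytic site of the C3 convertases, and they had the lowest levels of the members. C2 (ENSMUSG00000024371, chr17:35081580-35117241) had counts of 106 and 89 without and 162 and 99 with treatment, which are 6.63, 5.999, 9.18 and 4.83 CPM. ADC/cmLumiOpto replicate 1 was the highest and replicate 2 the lowest of the 4 samples, a ratio of 1.90 between treated replicates, and the log2 fold change was 0.15 (SE 0.39). Cfb (ENSMUSG00000090231, chr17:35075350-35081494) had counts of 41 and 21 without and 37 and 49 with treatment, or 2.56, 1.42, 2.10 and 2.39 CPM. Its treated values lay inside the saline range, with a log2 fold change of 0.17 (SE 0.49).

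Counts of Cfb and C2 depend on how reads in shared exons were assigned. The gene Gm20547 spans both genes on the same strand, and in GENCODE M21 its exons cover 79.5% of the exonic bases of Cfb and 42.8% of those of C2. Gm20547 had 0 counts in all 4 samples. The exonic lengths of Cfb and C2 in that annotation, 2825 and 3872 bases, equal those listed with the counts. A further 4.16% of C2 exonic bases overlap Zbtb12 on the opposite strand. The program that counted the reads is not given in the sources used here, and whether reads in the shared exons were left out was not tested, so the levels of Cfb and C2 are lower limits if they were.

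C3, on which the pathways converge, was the member with the largest positive difference. C3 (ENSMUSG00000024164, chr17:57510970-57535136) was at 615 and 337 CPM in the saline samples and 752 and 786 CPM in the ADC/cmLumiOpto samples. Both treated samples lay above both saline samples, and the log2 fold change was 0.69 (SE 0.29). ADC/cmLumiOpto replicate 1 was 0.957 times replicate 2, whereas saline replicate 1 was 1.83 times replicate 2. Without saline replicate 1 the log2 fold change was 1.18 and without saline replicate 2 it was 0.32. On the per-length scale (TPM) C3 was at 365 and 201 without and 369 and 430.5 with treatment, so that saline replicate 1 and ADC/cmLumiOpto replicate 1 were nearly level. Alveolar type 2 markers were higher alongside C3. Of 10, 8 lay higher in both treated samples than in both saline samples and 2, Abca3 and Etv5, lay lower, beside 28.1% and 28.8% of all tested genes. None was at 0, and their summed level was 555 to 1886 CPM in the saline group and 5205 to 6170 CPM in the treated group. Their part in the C3 values was not tested.

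C4b was the member that differed most between the groups, in the opposite direction. C4b (ENSMUSG00000073418, chr17:34947354-34962856), which encodes complement C4, was at 328 CPM in each saline sample and 139.7 and 117 CPM in the treated samples. Saline and treated values did not overlap, the group means were 328 ± 0.168 (SD, n = 2) and 128 ± 16.1 (SD, n = 2) CPM, and the log2 fold change was -1.35 (SE 0.17). With each sample left out in turn it stayed between -1.49 and -1.24. The SD of the saline pair lay below the counting error expected at 5247 and 4870 counts. It therefore does not measure the spread between saline samples. On the per-length scale C4b was at 176 and 177 TPM in the saline samples and 61.9 and 57.8 TPM in the treated samples. The near copy C4a, listed as a noncoding gene, had counts of 73 and 90 without and 64 and 54 with treatment, against 2397 to 5247 counts for C4b. In GENCODE M21, 35.2% of 50-base stretches of the C4b transcript also occur in C4a, so a share of the reads cannot be assigned to either with certainty, and both genes were lower in both treated samples than in both saline samples.

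Fibroblast markers were lower alongside C4b. Of 10 such markers, 7 lay lower in both treated samples than in both saline samples and 2, Dpt and Mfap4, lay higher, beside 28.8% and 28.1% of all tested genes, and their summed level was 15581 to 16528 CPM in the saline group and 8327 to 8921 CPM in the treated group, most of it from Fn1, the fibronectin gene. None of them was at 0. The ratio of C4b to Col1a1, a fibrillar collagen gene, was 0.159 and 0.241 without and 0.320 and 0.288 with treatment, so Col1a1 was lower by more than C4b was. Of the 10 markers, 3 (Col1a1, Col1a2 and Lum) had a ratio of group means under the 0.391 of C4b, and the other 7 were above it, among them Col3a1 at 0.456 and Fn1 at 0.592. The part of fibroblasts in the C4b values was not tested.

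C3 and C4b, homologous proteins that both carry an internal thioester, stood in different proportion in the 2 groups. Per length, C3 was 2.08 and 1.14 times C4b in the saline samples and 5.96 and 7.45 times in the treated samples. The treated ratios lay above both saline ratios, a difference that does not depend on how the libraries were scaled to each other. The ratio of C2 to C4b per length was 0.030 and 0.027 without and 0.097 and 0.061 with treatment.

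**Figure D2:**
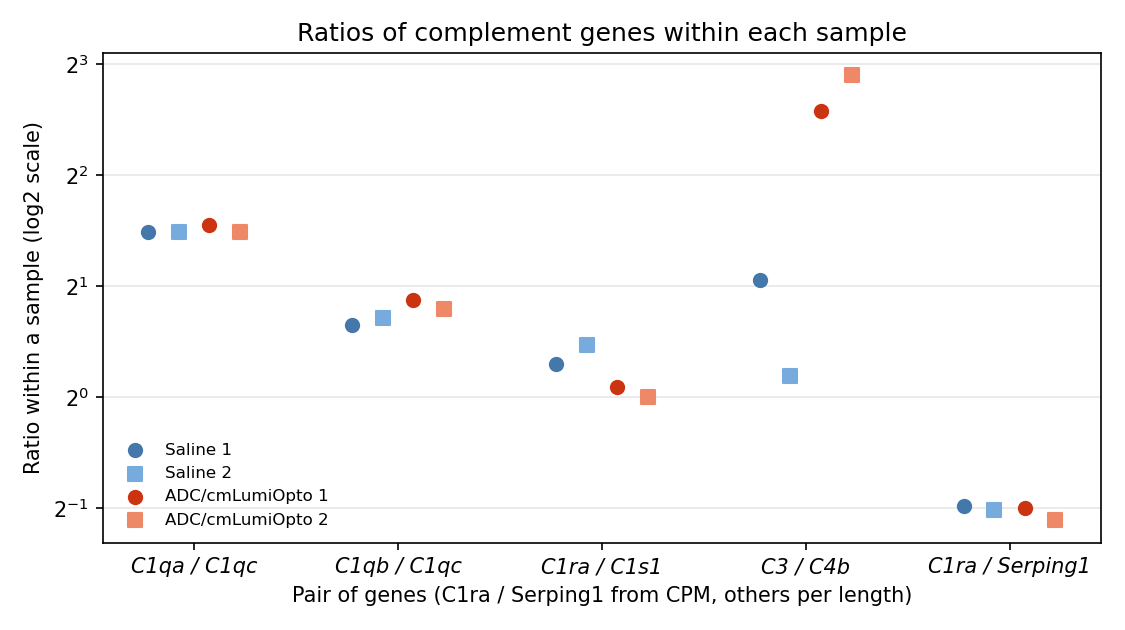
Ratio of pairs of complement genes within each sample on a log2 axis, from levels per length except C1ra over Serping1, which is from CPM, with 1 point per sample. C1qa over C1qc stays between 2.79 and 2.92 in all 4 samples, whereas C3 over C4b is 1.14 and 2.08 without and 5.96 and 7.45 with treatment.

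Levels of different genes were compared per length, as TPM from the gene lengths listed with the counts. C1qa was at 1568 and 1198 TPM in the saline samples and 1759 and 1344 TPM in the treated samples, which made its group means 95th and 79th among all 56748 genes. In the saline group C1qa was followed by C1qb, C1qc, C3, C4b, C1ra, C1s1, C2 and Cfb. Neighbors in this order did not overlap between samples, apart from C1ra and C1s1. The order was the same in the treated group, but there C4b, at 59.8 ± 2.87 (SD, n = 2) TPM, overlapped C1ra, at 56.7 ± 11.4 (SD, n = 2) TPM, and C1ra overlapped C1s1, at 54.9 ± 8.52 (SD, n = 2) TPM. C2 was at 4.99 ± 0.329 (SD, n = 2) and 4.75 ± 1.75 (SD, n = 2) TPM and Cfb at 2.16 ± 0.871 (SD, n = 2) and 2.13 ± 0.361 (SD, n = 2) TPM in the saline and treated groups. These values divide by full gene length, while 42.8% of C2 and 79.5% of Cfb exonic bases are shared with Gm20547. If reads in those exons were left out, both levels are too low, so the order of C2 and Cfb is uncertain. On this scale the treated samples stood somewhat lower relative to saline than on the CPM scale, and C1qb, at 875 and 703 TPM in the saline samples and 1106 and 831 TPM in the treated samples, overlapped between the groups.

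**Figure D3:**
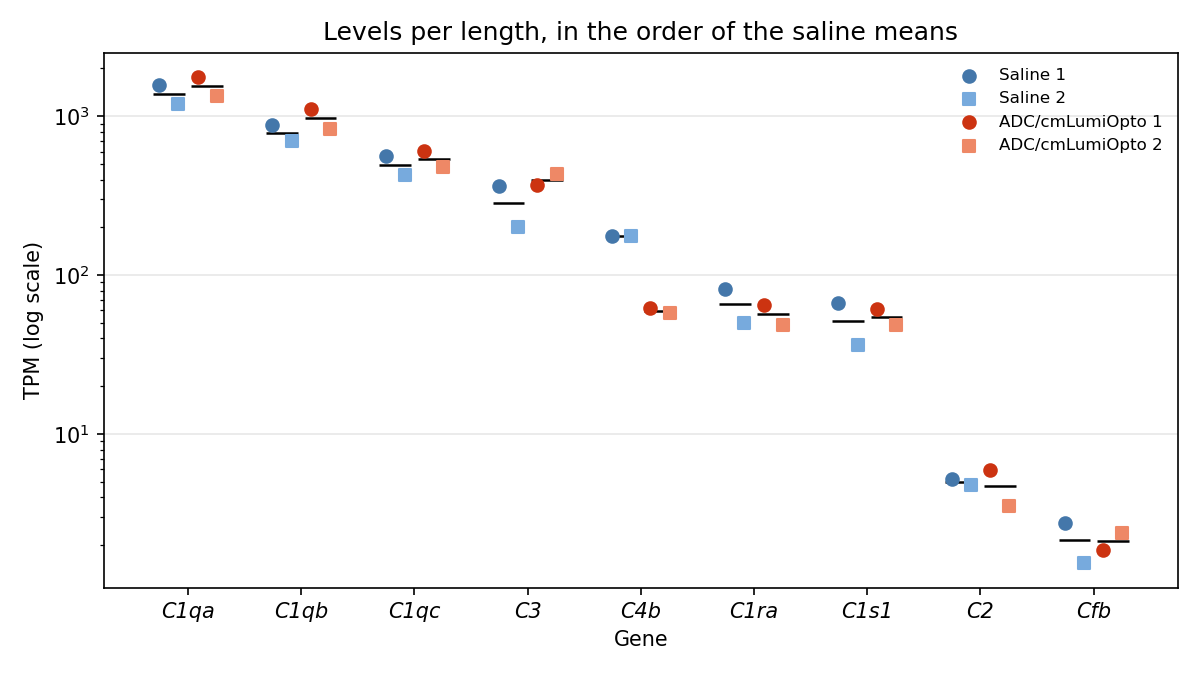
TPM on a log axis for each member in the order of the saline means, with 1 point per sample and a bar at each group mean. The C1q chains lead in both groups, C4b is at 177 TPM in the saline group and 59.8 TPM in the treated group, next to C1ra and C1s1, and C2 and Cfb stay under 6 TPM. The order of C2 and Cfb is uncertain, since reads in exons shared with Gm20547 may have been left out.

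Across the 9 members the median log2 fold change was 0.30, beside 0.028 for all tested genes. Of the members, 7 were above 0 and 2 below, beside 52.0% of tested genes above 0. The log2 fold change of C1ra lay above 0 with other scalings, at 0.026 with library size alone and 0.078 with upper-quartile normalization. On the TPM scale the tally was 5 higher and 4 lower group means, as C2 and Cfb joined C1ra and C4b on the lower side. In 2 members, C1qb and C3, both treated samples lay above both saline samples, beside 28.1% of all tested genes, and in 1 member, C4b, both lay below, beside 28.8%. In edgeR's quasi-likelihood test, adjusted by Benjamini-Hochberg, 0 of 9 members and 0% of the 15320 tested genes passed the threshold of 0.05 on the adjusted p, the smallest of which was 0.116. At an unadjusted p under the same threshold there were 1 higher and 1 lower member, C3 and C4b, beside 11.0% and 12.2% of tested genes. The edgeR exact test and DESeq2 each called 1 member, C4b, beside 7.64% and 9.63% of the genes they tested. Nothing is read from these counts, because the members had been chosen with this comparison known.

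**Figure D4:**
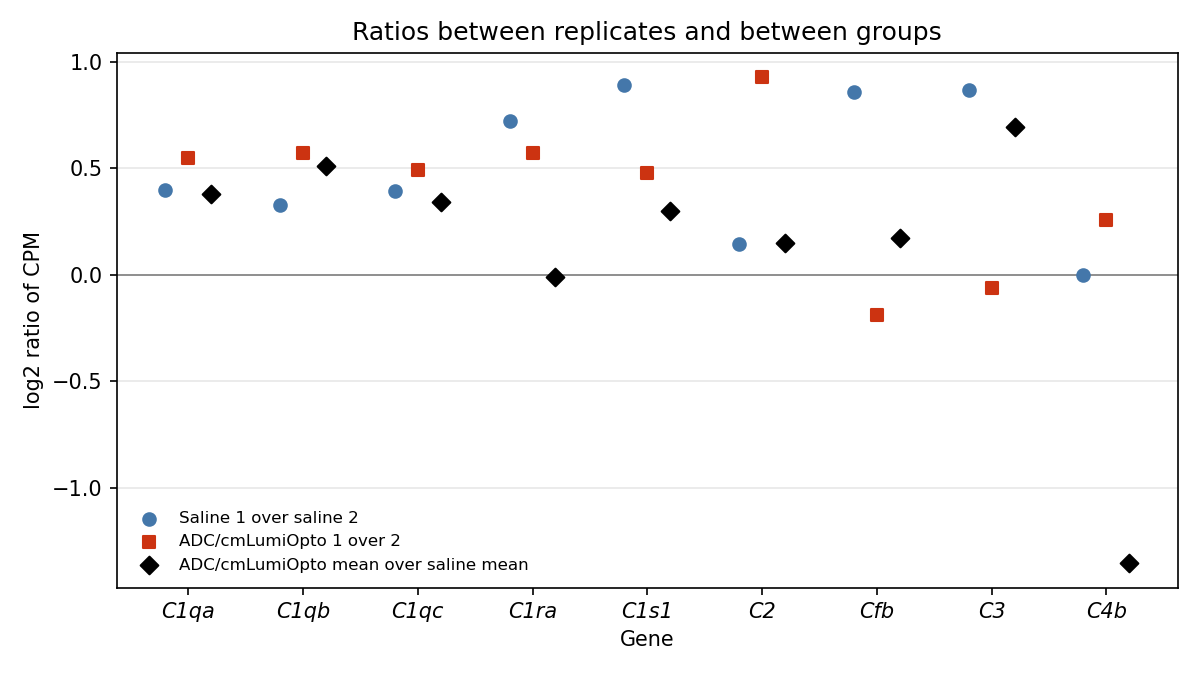
Log2 ratio of CPM for each member between the saline replicates (blue), between the ADC/cmLumiOpto replicates (red) and between the group means (black). The black point lies farther from 0 than both replicate ratios for C4b, whereas for C1qa, C1qc, C1ra, C1s1, Cfb and C3 the saline replicates differ by more than the groups.

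Other genes of the complement system were taken from a list of 51 genes written by role, of which 29 passed the filter on low counts and 22 did not. Of the 29, 18 had log2 fold changes above 0 and 11 below, beside 52.0% of all tested genes above 0, with a median of 0.26, beside 0.028. With edgeR's quasi-likelihood test, 0 of the 29 had an adjusted p under 0.05, and at an unadjusted p under 0.05 there were 5 higher and 2 lower, beside 11.0% and 12.2% of all tested genes. The edgeR exact test called 3 of the 29 (Hc, Cd55 and Vsig4), beside 7.64%, and DESeq2 called 4 (these and Fcna), beside 9.63%. Vtn and Cd46 passed the filter through the treated samples alone and Vsig4 through the saline samples alone, so the direction of these 3 was fixed by the filter. Vtn and Cd46 are among the 5 higher and Vsig4 is among the 2 lower at an unadjusted p under 0.05. The tallies above and below 0 also include them, and Vsig4 is among the exact test and DESeq2 calls. Nothing is read from these counts.

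Among terminal components, Hc, which encodes C5, stood out. Hc had counts of 177 and 48 without and 672 and 715 with treatment, or 11.1, 3.24, 38.1 and 34.9 CPM. Both treated samples lay above both saline samples, with a log2 fold change of 2.34 (SE 0.51; edgeR's quasi-likelihood test, adjusted p = 0.116). With each sample left out it stayed between 1.72 and 3.48. C6 and C7, which join C5b in the membrane attack complex, overlapped between groups, at 5.39 to 17.3 and 1.82 to 10.3 CPM in the saline samples and 9.95 to 14.1 and 8.56 to 15.5 CPM in the treated samples. C8a and C8b had 0 counts in all samples, C9 had 2 counts in saline replicate 2 alone, and C8g had 11 to 14 counts per sample.

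Most recognition molecules of the lectin pathway were scarce, and among those listed only Fcna passed the filter. Mbl2 had 0 counts in all samples and Mbl1 at most 5 counts, and Fcnb, Colec10, Colec11 and the protease gene Masp2 did not pass the filter. Fcna, which encodes ficolin A, was at 13.1 and 48.5 CPM in the saline samples and 6.06 and 11.7 CPM in the treated samples. Its log2 fold change, -1.79 (SE 0.62, edgeR adjusted p = 0.167), ranged from -2.46 to -0.56 as each sample was left out, and saline replicate 2 stood alone. Masp1, which encodes lectin pathway proteases, had counts of 130 and 158 without and 34 and 146 with treatment (log2 fold change -1.04, SE 0.59, edgeR adjusted p = 0.322), and this fold change was -0.40 without ADC/cmLumiOpto replicate 1 and -2.28 without replicate 2 of that group. In the alternative pathway, Cfp, which encodes properdin, the stabilizer of the convertase, was at 63.0 and 57.4 CPM in the saline samples and 93.6 and 81.2 CPM in the treated samples (log2 fold change 0.54, SE 0.17, edgeR adjusted p = 0.146). Cfd, which encodes factor D, did not pass the filter, at 11, 0, 1 and 5 counts.

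Among soluble regulators, Serping1 had a log2 fold change of 0.042, and Clu was lower in both treated samples than in both saline samples. Serping1, which encodes the inhibitor of C1r and C1s, was at 158 and 98.6 CPM in the saline samples and 153 and 111 CPM in the treated samples, which overlapped. C1ra was 0.507 and 0.493 times Serping1 in the saline samples and 0.4998 and 0.463 times in the treated samples, so the protease and its inhibitor kept close to the same proportion. Clu, which encodes clusterin, an inhibitor of the terminal complex, was at 679 and 886 CPM in the saline samples and 614 and 347 CPM in the treated samples (log2 fold change -0.70, SE 0.30, edgeR adjusted p = 0.219), and this fold change was -1.17 without ADC/cmLumiOpto replicate 1 and -0.35 without replicate 2 of that group. Of 11 genes in this group 7 did not pass the filter, among them Cpn1 with counts of 0 and 0 without and 13 and 10 with treatment.

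Of 8 genes of membrane regulators, 5 passed the filter, and Cd46 did so through the treated samples alone, which fixed its direction. In the other 4, Cd55, Cr1l, Cd59a and Susd4, both treated samples lay above both saline samples, beside 28.1% of all tested genes, and none had an adjusted p under 0.05. Csmd1 and Cd59b, which did not pass the filter, overlapped between the groups. Cd55, which encodes decay-accelerating factor, was at 4.06 and 4.52 CPM in the saline samples and 14.2 and 11.6 CPM in the treated samples (log2 fold change 1.58, SE 0.29, edgeR adjusted p = 0.116). Cr1l, which encodes Crry, the main rodent regulator of C3 convertases, was at 60.8 and 73.1 CPM in the saline samples and 91.4 and 80.8 CPM in the treated samples (log2 fold change 0.36, SE 0.18, edgeR adjusted p = 0.269). Cd46, Cd59a and Susd4 were under 4 CPM in every sample, with log2 fold changes of 2.04, 0.56 and 0.85.

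Of 9 tested receptor genes, 6 had log2 fold changes above 0 and 3 below, beside 52.0% of all tested genes above 0. Those below were Vsig4, and Cd93 and C1qbp at -0.23 and -0.22. Vsig4, a macrophage receptor for C3b and iC3b, passed the filter through the saline samples alone, which fixed its direction. It had counts of 23 and 54 without and 3 and 4 with treatment, for a log2 fold change of -3.74 (SE 0.74). C3ar1, the receptor for C3a, was at 63.6 and 30.3 CPM in the saline samples and 65.2 and 59.9 CPM in the treated samples, which overlapped. C5ar1, the receptor for C5a, was at 44.3 and 26.7 CPM in the saline samples and 40.4 and 99.8 CPM in the treated samples, the value of ADC/cmLumiOpto replicate 2 standing alone. Neutrophil markers, of cells that carry this receptor, were also highest in that sample, with a summed level of 9161 CPM against 707 to 1523 CPM in the other 3, and none of the 10 was at 0. Their part in the C5ar1 value was not tested. Itgax, a chain of complement receptor 4, was at 38.6 and 11.5 CPM in the saline samples and 72.5 and 44.9 CPM in the treated samples (log2 fold change 1.22, SE 0.53, edgeR adjusted p = 0.228), and this fold change was 2.33 without saline replicate 1 and 0.61 without saline replicate 2. Itgam and Itgb2, the chains of complement receptor 3, overlapped between the groups.

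**Figure D5:**
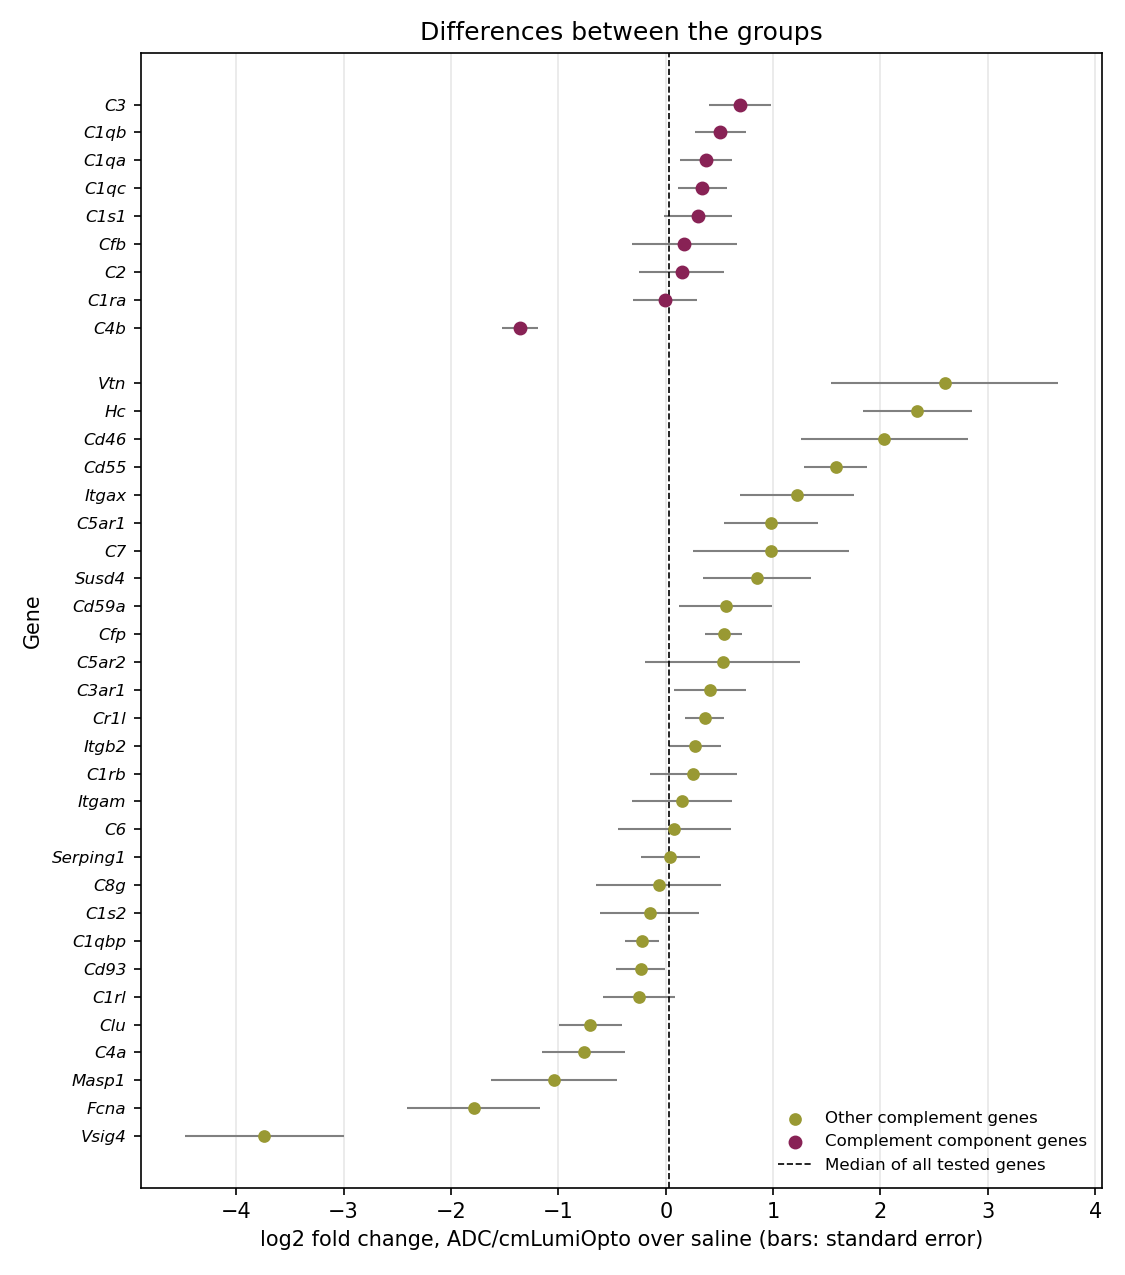
Log2 fold change of ADC/cmLumiOpto over saline with its standard error for the 9 members (purple) and the tested other complement genes apart from 1 (olive), with a dashed line at the median of all tested genes, 0.028. C4b lies at -1.35 while the other 8 members lie between -0.0092 and 0.69, and among the other genes Hc lies at 2.34 and Cd55 at 1.58. Vsig4 lies at -3.74, Vtn at 2.60 and Cd46 at 2.04, and the direction of each of these was fixed by the filter.

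Interferon-γ, NF-kappaB and interleukin-6 signals are known inducers of complement genes, and their other target genes were counted. Of 17 interferon-γ target genes, 11 had log2 fold changes above 0 and 6 below, beside 52.0% of all tested genes above 0. In none did the groups separate, beside 28.1% of all tested genes with treated samples above and 28.8% with them below. Their summed level was 2532 and 1955 CPM in the saline samples and 3110 and 1498 CPM in the treated samples, so the treated replicates lay on either side of saline. The interferon-γ targets with the smallest p were Psmb9, Cxcl10 and Irgm1, with log2 fold changes of 0.58, 0.89 and -0.47. Of 14 targets of NF-kappaB and interleukin-6, 10 were above 0 and 4 below, beside 52.0% of all tested genes above 0. In 8 of them both treated samples lay above both saline samples, beside 28.1% of all tested genes. In 1, Tnfaip3, both lay below, beside 28.8%. The summed level of these targets was 3090 CPM in ADC/cmLumiOpto replicate 2, where the neutrophil markers also stood apart, against 1305 to 2004 CPM in the other 3 samples, and the part of neutrophils was not tested. Those with the smallest p were Hp, which encodes haptoglobin, Cebpd, which encodes a C/EBP transcription factor, and Il1b, with log2 fold changes of 2.18, 1.42 and 1.10. None of the genes in these lists had an adjusted p under 0.05 in edgeR's quasi-likelihood test.

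Genes with the pattern most like each member were found by the distance of centered log2 CPM over the 4 samples, among 11433 tested genes with a mean of at least 5 CPM. For the mean of the C1q chains these were Amacr, Mrps12 and Tmx2, at distances of 0.034, 0.058 and 0.070. For C1ra they were Gpm6b, Serping1 and Tm7sf2 (0.084, 0.0999 and 0.11), and for C1s1 they were Fam78a, 4933404O12Rik and Snhg18 (0.059, 0.12 and 0.12). For C2 they were Gpx7, Insl6 and Txnl4a (0.080, 0.12 and 0.12), and for Cfb they were Coa7, Slc29a2 and Ogfod1 (0.064, 0.084 and 0.095). For C3 they were Gm40289, Milr1 and Abcg1 (0.042, 0.078 and 0.10), and for C4b they were Vangl2, Pdzrn3 and the collagen gene Col5a2 (0.10, 0.19 and 0.20). These distances rest on 4 samples and are a description. Among the members, C1ra had C1s1 as its nearest at a distance of 0.36, while C1s1 had C1qa, at 0.35, and the nearest to C4b, C1ra, was at 1.48.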

How the data were processed

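The authors sequenced poly(A) RNA on an Illumina HiSeq instrument and aligned reads with HISAT2. The submitters' processing notes name mm39 and the methods GRCm38. Positions of 0 of 9 members equal those of GENCODE M21 (GRCm38), with equal span lengths in 9, so gene positions are those listed with the counts, taken as mm39, and promoters are GRCm38.p6. What the authors deposited are whole-number read counts for each gene, not normalized. The submitters' notes also name TopHat2 without its role. The counting program is not given in the sources used here.

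Groups were compared in edgeR 4.0.16 under R 4.3.3 (filterByExpr with count and total minimums of 10 and 15, TMM, estimateDisp, glmQLFit, glmQLFTest, Benjamini-Hochberg adjustment over 15320 genes). Log2 fold changes (prior count 0.125) were divided by the root of F to give their SE. CPM are TMM-normalized, and TPM were computed from the counts and listed gene lengths. The smallest two-sided p of an exact permutation test here is 0.333. The procedure was tested on simulated data. Members and lists were chosen with earlier results of these data known. Named were the members, the listed complement genes, the 3 targets of smallest p per list, and the 3 genes nearest to each pattern (log2 CPM with prior count 2). Alternatives were DESeq2 1.42.0, the exact test, other normalizations and filters, a replicate block and each sample left out. Of the other complement genes, 1 is counted but its values are not reported here. The other assays of the study were not analysed here.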

Additional observations from a re-analysis of the deposited data

How the results depend on the processing

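No gene passed the threshold in edgeR's quasi-likelihood test, with 3553 at an unadjusted p under 0.05, and 0 were also found with library size alone, upper-quartile normalization or at least 10 counts in every sample. The count was 1332 with DESeq2 (575 higher, 757 lower), 1170 with the edgeR exact test (606 higher, 564 lower) and 2259 without a filter beyond 1 count (1224 higher, 1035 lower). As single samples were removed it lay between 0 and 218, the latter without saline replicate 1. Of the other complement genes, 4, 3 and 9 passed under these 3 alternatives, and 0 to 3 with a sample left out. With the replicate number as a block, 607 genes (308 higher, 299 lower) and 5 other complement genes passed. The labels give no pairing of same-numbered samples. Their deviations from the group means had r = 0.0985 over 15320 genes. With 2 samples per group this cannot settle whether they are paired or share a batch.

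The median of the members kept its direction, between 0.077 and 0.58. The log2 fold change of C1ra was 0.026 with library size, 0.078 with upper-quartile normalization, 0.0021 with DESeq2, 0.029 with at least 10 counts in every sample and 0.0079 with the block, all above 0. That of C8g was 0.017 with upper-quartile normalization. The log2 ratio of C3 to C1qa in the saline group was -2.29 per length and 0.019 without division by length, since C3 is the longer. With each sample left out, the log2 fold change turned sign for C1ra (-0.32 to 0.38), C1s1 (-0.076 to 0.80), C2 (-0.39 to 0.53), Cfb (-0.19 to 0.65), C1rb (-0.19 to 0.60), C1s2 (-0.58 to 0.47), C1rl (-0.59 to 0.20), C6 (-0.52 to 1.14), Serping1 (-0.26 to 0.41), C3ar1 (-0.023 to 1.03), C5ar2 (-0.82 to 1.203), Itgam (-0.72 to 0.69), Itgb2 (-0.076 to 0.55) and Cd93 (-0.58 to 0.041). Apart from the ratio per length, the cause was not tested. Of 108 member values under alternatives 98 kept their sign. Counts were lowest for Cfb and C2, at 21 to 162, and the cause of this was not tested.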

Other observations

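Of 9 alveolar macrophage markers, 4 (Mrc1, Chil3, Marco and Pparg) were highest and 4 (Siglecf, Ear1, Ear2 and Itgax) were lowest in saline replicate 2, and the examples here were named after their values were seen. Mrc1, the mannose receptor gene, was at 212 and 392 CPM in the saline samples and 135 and 171 CPM in the treated samples, and Chil3, a chitinase-like gene, was at 115 and 418 CPM and then 41.7 and 162 CPM. Itgax was instead at 38.6 and 11.5 CPM and then 72.5 and 44.9 CPM. Fcna and Vsig4 were also highest in saline replicate 2. C1qa, C1qb and C1qc were instead lowest in that sample.

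Proliferation markers had log2 fold changes below 0 in 10 of 10 genes, with a median of -0.61, and 8 of them lay lower in both treated samples than in both saline samples, beside 28.8% of all tested genes. Endothelial markers were above 0 in 9 of 10 genes, beside 52.0% of all tested genes, with a median of 0.76. Epithelial and tumor markers had a median of -0.15, and their summed level was 3161 and 3473 CPM in the saline samples and 3089 and 2986 CPM in the treated samples. None of these genes passed the threshold in edgeR's quasi-likelihood test.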
